A study of Mus musculus with 4 samples.

Results

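The astrocytes described here were the nuclei that the study placed in its astrocyte cluster and whose sub-cluster label was neither tanycytes nor vascular and leptomeningeal cells (VLMC). They numbered 8007 of 56386 annotated nuclei (14.2%) and came from all 4 libraries. The study asked how a thyroid hormone receptor that binds its hormone poorly from before birth alters the cells of the hypothalamus, and single-nucleus RNA sequencing was run on the hypothalamus of 12 adult male C57/BL6NCr mice, 6 of each genotype. Wild-type (WT) mice carried 2 normal copies of Thra, the gene of the receptor TRα1. The TRα1+m mice were heterozygous, with 1 copy carrying a point mutation that lowers the affinity of TRα1 for hormone; every cell carries this allele, so a difference in astrocytes may arise in astrocytes or elsewhere in the animal. No mouse received a treatment. Nuclei of 3 mice were pooled for each library, and each of 2 experimental repeats gave 1 WT and 1 TRα1+m library, so n = 2 libraries per genotype.

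Astrocytes clear glutamate and potassium from around synapses, carry water and metabolites between vessels and neurons, and supply neurons with lipoprotein lipids. They also take up thyroxine from the blood and turn it into the active hormone T3, which then acts through nuclear receptors that switch target genes on when hormone is bound and hold them down when it is not. In the hypothalamus they sit beside tanycytes, the related radial cells of the third ventricle, with which they share many genes.

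The WT libraries of repeats 1 and 2 held 2028 and 1861 astrocyte nuclei and the TRα1+m libraries 2432 and 1686. Summed over these nuclei, the libraries gave 3876173, 4319976, 4336338 and 3571568 unique molecular identifiers (UMIs, counted RNA molecules), in the order WT repeat 1, WT repeat 2, TRα1+m repeat 1 and TRα1+m repeat 2, which is the order of all further sets of 4 values. The median nucleus held 1781, 2200, 1662.5 and 1957.5 UMIs, with more in repeat 2 of each genotype. Levels below are counts per 1000000 (CPM) of the summed astrocyte UMIs of a library and compare libraries or cell types for 1 gene, not genes with each other. At most 1 astrocyte barcode was shared by any pair of libraries.

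The study named this cluster from Agt, Aqp4, Slc1a2 and Slc1a3, so the levels of these 4 genes describe it and are no check of the label. Gja1, which encodes the gap junction protein connexin 43 and was not among the naming genes, was at 782, 1229.6, 842 and 1339 CPM, against a mean of 347 CPM in tanycytes, 94.7 CPM in oligodendrocytes and 38.8 CPM in neurons. The nuclei were clustered on their expression, so this too is a description without a test. Slc1a2, the main glutamate transporter of astrocytes, was at 2747, 3049, 3144 and 3818 CPM, against a mean of 161 CPM in neurons, 307.5 CPM in oligodendrocytes and 829.5 CPM in tanycytes. When every nucleus was thinned to 900 UMIs, a Slc1a2 UMI was seen in 87.6%, 90.2%, 90.0% and 93.6% of astrocytes. The same share in neurons was 13.2%, 13.4%, 17.2% and 10.3%. Slc1a3, the second glutamate transporter, was at 1959, 1908, 1799.7 and 1909 CPM and had nearly the same level in the 4 libraries. Agt, the precursor of angiotensin, averaged 1362 CPM in astrocytes and 117 CPM in tanycytes. The water channel Aqp4 was at 253, 491, 315 and 731 CPM, higher in repeat 2 of both genotypes, as was Agt. The tanycyte genes Rax and Col23a1 averaged 4.98 and 67.3 CPM in astrocytes against 47.4 and 2078 CPM in tanycytes. RNA of other cells was present in the nuclei, since 68.4%, 73.8%, 68.1% and 66.3% of astrocyte nuclei held UMIs of at least 2 of 28 markers of oligodendrocytes, their progenitors (OPCs), microglia, endothelial or mural cells.

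The share of astrocytes among annotated nuclei was 13.8%, 13.97%, 14.8% and 14.1%. Both TRα1+m values lay above both WT values by less than 1 percentage point, and the fitted difference was 0.05 ± 0.19 (log2 ± SE, adjusted p = 0.975).

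The first question was which astrocyte genes differ between genotypes. Without regard to the repeats, edgeR's quasi-likelihood test called 0 of 14072 genes (0%) at an adjusted p under 0.05, with 312 genes at an unadjusted p under 0.05 and a smallest adjusted p of 0.9998. DESeq2 without regard to the repeats called 2 genes, the long non-coding RNA Gm35552 and the complement gene C4b. The 2 libraries of a repeat were made together and differed from the other repeat in many genes, as described below, and with the repeat as a block (a term for the experiment, pairing each TRα1+m library with its WT library) the same edgeR test called 245 genes (1.74%), of which 147 were higher (1.04%) and 98 lower (0.696%) in TRα1+m. DESeq2 with the same block called 18 genes (0.128%), and edgeR called these 18 too. The fit with the block leaves 1 degree of freedom among the libraries and borrows the rest of its error from the other genes, so the values of the single libraries are given with each main gene. The 24 genes with the largest differences, 12 in each direction, were taken from the fit with the block among genes of at least 20 CPM that moved the same way in both repeats. In what follows, "rose" and "fell" refer to TRα1+m against WT in the fit with the block, and without the block the adjusted p of each gene was at least 0.9998. Of the genes named below, Gm35552, C4b, Prelp, Fabp7, Mfge8, AC149090.1, Clu, Ptn, Gria1, Itih3, Gria2, Sgcd, Hr, Nkx6-2 and Syt10 passed in each of the 9 fits with the block (other scaling, filters, tool or nuclei). With RLE scaling and the block, Aqp4, Fbln5, Fgfr1, Ggta1, Gpc5, Hcrt, Pde10a, Pomc and Sult1a1 did not pass (adjusted p of 0.0555 to 0.92), with differences of the same sign and nearly the same size.

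**Figure D1:**
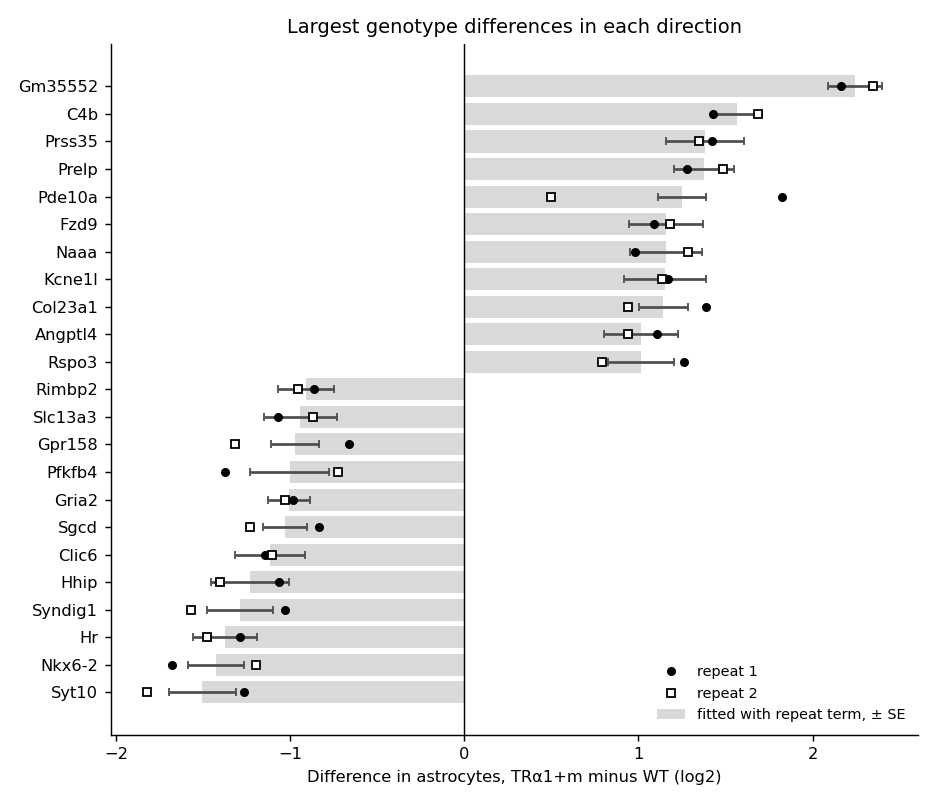
Fitted genotype differences in astrocytes (TRα1+m minus WT, log2) for the genes reported here among the 12 with the largest difference in each direction, as bars with SE from the edgeR fit with the repeat as a block; filled circles are repeat 1 and open squares repeat 2. The 2 repeats lay on the same side of 0 for each gene, as the choice of genes required, and were farthest apart for Pde10a.

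Hr stood out among the genes tied to thyroid hormone. Hr encodes the corepressor hairless, and its transcription is switched on by the hormone-bound receptor in the brain. Its level was 49.5 and 43.8 CPM in the WT libraries and 20.3 and 15.7 CPM in TRα1+m. Both TRα1+m libraries lay far below both WT libraries, and the difference was -1.38 ± 0.18 (log2 ± SE, adjusted p = 7.03e-11). At 900 UMIs per nucleus, an Hr UMI was found in 3.85% and 3.98% of WT and in 2.01% and 1.96% of TRα1+m astrocytes, against 0.230% and 0.286% of WT and 0.0848% and 0.191% of TRα1+m neurons. In oligodendrocytes the share was 1.28%, 1.07%, 0.712% and 0.92%, so both TRα1+m libraries lay below both WT libraries in these cells too, without passing (-0.23, adjusted p = 0.86). Hr lies on chromosome 14 from 70552212 to 70573548 (GRCm38).

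In a list of 7 thyroid hormone response genes, Hr alone passed the test, against 1.74% of all genes in either direction (0.696% lower), and the list's median difference was -0.33, against 0.0065 over all genes tested. Klf9, a transcription factor induced by T3, was at 231, 191, 180.3 and 188 CPM, and the TRα1+m libraries lay below WT by less than the 2 WT libraries lay apart. Thrsp, a regulator of fat synthesis named for its response to the hormone, was at 22.2, 21.3, 22.4 and 28.0 CPM, where TRα1+m of repeat 1 hardly differed from WT (0.21 ± 0.19, adjusted p = 0.823). Of the other list members, Me1 was at 91.1, 100.5, 80.7 and 101 CPM and Nrgn at 62.7, 47.9, 53.3 and 34.4 CPM, while Stard4 and Shh stayed under 10 CPM in each library.

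None of the 10 receptors and cofactors passed. Thra was at 165, 187, 142 and 134 CPM, lower in both TRα1+m libraries (-0.34 ± 0.13, adjusted p = 0.186). Since the mutation exchanges an amino acid, the level of Thra is no check of the genotype labels. Thrb, which encodes the second receptor, was at 444, 407, 383 and 386 CPM (-0.14 ± 0.12, adjusted p = 0.793). None of the 8 genes of hormone transport and deiodination that were tested passed. The thyroxine carrier Slco1c1 was at 138, 164, 169 and 184 CPM, higher in both TRα1+m libraries without passing. Dio2, the enzyme that makes T3, was under 7 CPM in each library, too low for its changes to be read, and Dio3 had no UMI.

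Of 14 listed transmitter receptors Gria2 alone passed, against 0.696% of all genes lower and 1.04% higher, and the list's median was -0.03. Gria2, the AMPA receptor subunit that blocks calcium entry, was at 728 and 669.7 CPM in WT and 368 and 327 CPM in TRα1+m. The 2 groups were far apart and each genotype's libraries close together (-1.01 ± 0.12, adjusted p = 1.08e-13). A Gria2 UMI was seen in 45.6% and 42.7% of WT and 27.5% and 25.4% of TRα1+m astrocytes at 900 UMIs. In the neurons of the same libraries, which use Gria2 in most of their synapses, the share was 64.3%, 59.6%, 64.0% and 60.5%, with no order by genotype, and the fitted difference was -0.08 (adjusted p = 0.69). In oligodendrocytes it was 20.2%, 21.6%, 18.4% and 12.6%, below WT in both TRα1+m libraries, with a fitted difference of -0.35 that did not pass (adjusted p = 0.27). Gria1, the other abundant AMPA subunit of glia, was at 1609, 1889.8, 955 and 1217 CPM. It too fell without overlap (-0.69 ± 0.11, adjusted p = 5.63e-07) and differed by -0.02 in neurons (adjusted p = 0.94). Gria1, Itih3 and Daam2 are named here because both models called them, a choice made after their values were seen, and belong to none of the lists. Syndig1, which is in no list either, binds AMPA receptors at synapses, was named for the size of its change, and was at 34.8, 43.3, 17.1 and 14.6 CPM (-1.29 ± 0.19, adjusted p = 1.54e-08). Of the listed receptors that did not pass, Grm3, a metabotropic glutamate receptor, was at 542, 485, 605 and 560.0 CPM.

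Kcnj10 encodes the inward rectifier potassium channel Kir4.1 through which astrocytes buffer potassium. It was at 209.7 and 253 CPM in WT and 136 and 152 CPM in TRα1+m. The groups did not overlap (-0.68 ± 0.13, adjusted p = 2.53e-05). Kcnj10 also fell in oligodendrocytes, by 0.67 on the log2 scale (adjusted p = 0.0015). Of the 14 genes for water, potassium and gap junctions, Kcnj10 fell (against 0.696% of all genes) and Aqp4 rose (against 1.04% of all genes). Aqp4 was higher in TRα1+m within each repeat, by 0.32 and 0.58 on the log2 scale (0.45 ± 0.12, adjusted p = 0.0156), although the genotypes overlapped. With the block its difference was 0.45 to 0.54 in the other fits, and it did not pass with RLE scaling (adjusted p = 0.067), equal numbers of nuclei (0.0868), a filter of 20 CPM (0.154), nuclei without other markers (0.109) or DESeq2 (0.9995). Slc38a3, which exports glutamine from astrocytes, was at 58.3, 81.3, 35.7 and 57.1 CPM (-0.60 ± 0.14, adjusted p = 0.00396) and was the 1 of 11 genes of transmitter uptake and the glutamine cycle to pass (against 1.74% of all genes). The glutamate transporters themselves did not, with a difference of 0.26 ± 0.11 for Slc1a2 (adjusted p = 0.307) and -0.06 ± 0.11 for Slc1a3 (adjusted p = 0.942).

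Syt10, a synaptotagmin calcium sensor, had the largest fall of the genes selected by the rule. Its level was 44.4, 39.6, 18.4 and 11.2 CPM (-1.51 ± 0.19, adjusted p = 6.88e-12). Gpr158, a receptor at the cell surface that also lowers G protein signals, was at 98.0, 106, 62.0 and 42.3 CPM (-0.97 ± 0.14, adjusted p = 1.30e-09). Rimbp2, a scaffold of transmitter release sites, was at 48.2, 62.5, 26.5 and 32.2 CPM (-0.91 ± 0.16, adjusted p = 7.88e-06). In none of these 3 did a TRα1+m library reach a WT library.

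**Figure D2:**
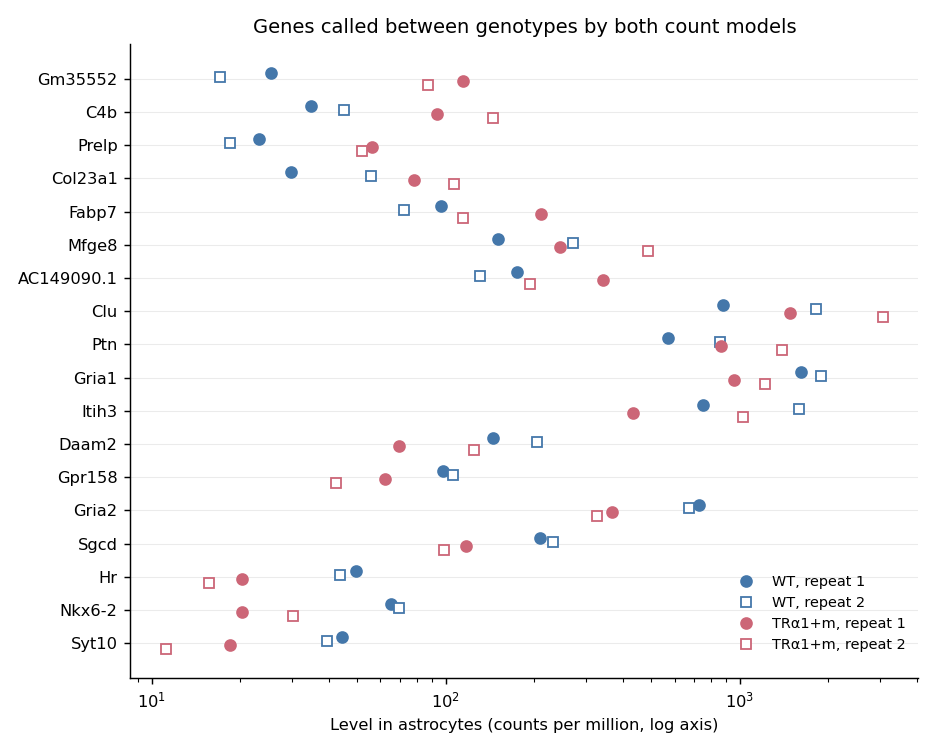
Levels in astrocytes (CPM, log axis) in the 4 libraries for the 18 genes that edgeR and DESeq2 both called with the repeat as a block, ordered by fitted difference; blue is WT, red TRα1+m, circles repeat 1 and squares repeat 2. The genotypes are separate for Gria2, Hr and Gm35552, and they overlap for Clu and Mfge8, where the WT library of repeat 2 lies above the TRα1+m library of repeat 1, and for Itih3, where the TRα1+m library of repeat 2 lies above the WT library of repeat 1.

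Of 15 genes of the Notch, hedgehog and FGF pathways 2 rose and none fell, and of 17 glial transcription factors 1 rose, as given below, against 1.04% of all genes higher and 0.696% lower. Nkx6-2, Hhip and Fzd9 are in neither list and were named for the size of their change. Nkx6-2, a homeodomain factor best known in oligodendrocyte maturation, was at 65.0 and 69.4 CPM in WT and 20.3 and 30.2 CPM in TRα1+m. The groups did not overlap (-1.43 ± 0.16, adjusted p = 1.74e-15). Its share of nuclei at 900 UMIs was 6.46% and 6.02% against 1.81% and 2.97%. In neurons this share was 0.972%, 1.33%, 0.471% and 0.557%, lower in both TRα1+m libraries too. Nkx6-2 also fell in tanycytes (by 1.81 on the log2 scale), OPCs (by 1.48) and microglia (by 1.68), and in oligodendrocytes the difference was -0.41 and did not pass (adjusted p = 0.26). Whether the Nkx6-2 UMIs of astrocytes and microglia came from free RNA of broken cells was not tested. Hhip, a decoy that holds back hedgehog ligands, was at 21.7, 28.9, 10.4 and 10.9 CPM (-1.23 ± 0.22, adjusted p = 1.46e-05). Of the listed pathway genes, Hes5, a Notch target that keeps glial precursors undifferentiated, rose from 122 and 122 CPM to 153 and 218 CPM (0.59 ± 0.13, adjusted p = 8.39e-04), and Fgfr1, a fibroblast growth factor receptor, rose from 65.3 and 92.8 CPM to 96.6 and 125 CPM (0.50 ± 0.13, adjusted p = 0.014). The hedgehog receptor Ptch1 was at 932, 929.9, 732 and 719.9 CPM, lower in both TRα1+m libraries without passing (-0.36 ± 0.12, adjusted p = 0.0836). Daam2, a formin of Wnt signalling, fell from 144 and 205 CPM to 69.6 and 125 CPM (-0.88 ± 0.13, adjusted p = 1.54e-08). Fzd9, a Wnt receptor, was at 7.48, 19.9, 15.9 and 45.1 CPM and rose within each repeat (1.16 ± 0.21, adjusted p = 1.55e-05), although the genotypes overlapped. Of 17 glial transcription factors, Hes5 alone passed.

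Gm35552 had the largest rise of the genes selected by the rule. This long intergenic non-coding RNA, on the minus strand of chromosome 10 from 47016652 to 47102832, was at 25.5 and 17.1 CPM in WT and 114 and 87.1 CPM in TRα1+m. The lower TRα1+m library was more than 3 times the higher WT library (2.24 ± 0.15, adjusted p = 4.72e-44). At 900 UMIs it was seen in 1.97%, 1.02%, 8.72% and 7.47% of astrocytes, against at most 0.104% of neurons and 0.415% of oligodendrocytes. In tanycytes its level was 7.5, 2.0, 19.1 and 16.9 CPM, in the same order, and the difference there did not pass (1.89, adjusted p = 0.12).

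C4b, the complement component C4, was at 34.8 and 45.1 CPM in WT and 93.6 and 145 CPM in TRα1+m (1.57 ± 0.14, adjusted p = 2.26e-25). The groups did not overlap, and the share of astrocytes with a C4b UMI at 900 UMIs was 2.86%, 3.33%, 7.28% and 10.6%, against 0.209%, 0.0914%, 0.518% and 0.147% of neurons. C4b shares most of its sequence with C4a, and how reads were split between the 2 copies is uncertain. C4b rose in oligodendrocytes as well (1.21, adjusted p = 6.3e-04) and differed by 0.07 in tanycytes (adjusted p = 0.99).

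Gfap, the intermediate filament protein of reactive and fibrous astrocytes, was at 83.1, 146, 161 and 193 CPM (0.67 ± 0.13, adjusted p = 6.26e-05). Its 2 lowest values were WT, and the TRα1+m library of repeat 1 was close to the WT library of repeat 2. Gfap also rose in oligodendrocytes, which are not known as a source of it (0.66, adjusted p = 0.029), where it was at 35.5, 34.3, 72.4 and 36.4 CPM. The TRα1+m library of repeat 1 stood far above both WT libraries there, and that of repeat 2 only just above them. In microglia Gfap was at 40.7, 30.3, 82.2 and 56.7 CPM, higher in both TRα1+m libraries. In neurons it was at 10.0, 11.1, 25.2 and 11.2 CPM. In OPCs (24.4, 22.7, 39.6 and 18.3 CPM) and tanycytes (24.7, 52.2, 43.1 and 35.5 CPM) the genotypes overlapped. Of 23 reactive astrocyte genes 14 were tested, and Gfap and Ggta1 rose, against 1.04% of all genes. Fbln5, an elastic fibre protein, fell (-0.68 ± 0.18, adjusted p = 0.0147), against 0.696% of all genes, and the list's median was 0.42. In 7 of the 14 both TRα1+m libraries lay above both WT libraries, a pattern that 12.9% of all tested genes showed, and in 2 both lay below (12.6% of all tested genes). Vim was at 20.4, 22.2, 28.8 and 33.0 CPM and Serpina3n, a strong marker of reactive astrocytes, at 10.6, 12.7, 15.9 and 17.6 CPM, both higher in TRα1+m without passing.

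Of 26 cholesterol and lipid genes Clu, Apoe and Fabp7 rose and none fell, against 1.04% of all genes higher and 0.696% lower, and the list's median was -0.08. Clu, the lipoprotein clusterin, was at 878, 1819, 1477 and 3061 CPM, higher in TRα1+m within each repeat although the genotypes overlapped (0.75 ± 0.11, adjusted p = 1.91e-08). Apoe, the main lipoprotein of the brain, was at 7816, 12936, 10559 and 21646 CPM with the same overlap (0.59 ± 0.11, adjusted p = 1.31e-05). Fabp7, a fatty acid binding protein of glial precursors and astrocytes, was at 96.5, 72.2, 211 and 114 CPM, with no overlap (0.91 ± 0.13, adjusted p = 5.33e-09). The cholesterol synthesis enzymes Sqle and Cyp51 did not pass. The rises of Clu and Apoe depended on the pairing, since leaving out single libraries moved the unblocked difference from 0.14 to 1.32 for Clu and from 0.03 to 1.06 for Apoe. Fabp7 also rose in tanycytes (0.94), oligodendrocytes (0.83), OPCs (0.85) and microglia (1.00), and Apoe in tanycytes (0.63) and oligodendrocytes (0.96). Angptl4 and Naaa are in no list and were named for the size of their change. Angptl4, an inhibitor of lipoprotein lipase, was at 10.1, 16.2, 21.7 and 31.1 CPM (1.02 ± 0.21, adjusted p = 4.14e-04), and Naaa, which breaks down fatty acid ethanolamides, at 11.1, 15.3, 21.9 and 37.2 CPM (1.16 ± 0.21, adjusted p = 1.31e-05). In both of these the TRα1+m libraries lay above both WT libraries. None of 15 glucose, glycogen and lactate genes passed, and none of 6 metabolic hormone receptors.

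Of 19 tested genes for matrix and synapse organisation, Ptn rose and Gpc5 and Lama2 fell, against 1.04% of all genes higher and 0.696% lower, and the list's median was 0.14. Prelp, Sgcd and Itih3 are not in that list, and Col1a2 is a member of the VLMC list. Prelp, a leucine-rich proteoglycan, rose from 23.2 and 18.5 CPM to 56.3 and 51.8 CPM (1.38 ± 0.17, adjusted p = 2.48e-12). Ptn, the growth factor pleiotrophin, was at 572, 855, 864 and 1388 CPM, and its groups touched without overlap (0.65 ± 0.12, adjusted p = 8.66e-06). Col1a2, a fibrillar collagen chain of VLMC, was at 13.4, 18.3, 28.1 and 33.0 CPM (0.95 ± 0.20, adjusted p = 3.76e-04), and the summed VLMC markers were at 33.3, 31.3, 51.9 and 46.2 CPM. Whether VLMC RNA carried part of the Col1a2 and Prelp values was not tested. Sgcd, a sarcoglycan of the complex that ties the cytoskeleton to laminin, fell from 210.0 and 232 CPM to 118 and 98.6 CPM (-1.03 ± 0.13, adjusted p = 2.48e-12). Lama2, a laminin chain that this complex binds, was at 569.6, 518, 400.1 and 337 CPM and fell without overlap (-0.56 ± 0.12, adjusted p = 4.73e-04). Itih3, which links proteins to hyaluronan, was at 750.2, 1593, 433 and 1028 CPM, lower in TRα1+m within each repeat (-0.71 ± 0.12, adjusted p = 5.27e-07). The glypican Gpc5 was at 8048, 8685, 5866 and 7153 CPM (-0.37 ± 0.11, adjusted p = 0.0412).

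A few of the largest differences need their single values. Pde10a, a phosphodiesterase of striatal neurons, was at 96.2, 45.8, 341 and 64.7 CPM, higher in TRα1+m within each repeat, by 1.83 and 0.50 on the log2 scale (1.25 ± 0.14, adjusted p = 6.18e-16). With the block it did not pass with RLE scaling (1.25, adjusted p = 0.156), DESeq2 (1.16, adjusted p = 0.9995) or tanycytes and VLMC counted in (1.12, adjusted p = 0.0655). The TRα1+m library of repeat 1 stood far above the other 3, and the TRα1+m library of repeat 2 lay below WT of repeat 1. Col23a1, a transmembrane collagen, was at 29.7, 55.6, 77.7 and 106 CPM, with no overlap (1.14 ± 0.14, adjusted p = 1.15e-12). In oligodendrocytes Col23a1 rose more, from 11.2 and 11.1 CPM to 158 and 169 CPM (3.94 ± 0.20, adjusted p = 5.98e-30). In tanycytes it was at 1554, 2380, 1283 and 3094 CPM, with no order by genotype. Rspo3, a Wnt enhancer, was at 15.5, 22.0, 37.1 and 38.1 CPM (1.01 ± 0.19, adjusted p = 2.12e-05). Col23a1 and Rspo3 were the 2 of 9 tested tanycyte markers that rose, against 1.04% of all genes. The summed tanycyte markers were at 1223, 1507, 1528 and 2030 CPM, and the defining tanycyte gene Rax was at 4.64, 6.25, 6.23 and 2.80 CPM, with no order by genotype. With tanycytes and VLMC counted in, the blocked difference of Col23a1 was -0.008. The other genes named by the rule were Clic6 (-1.12 ± 0.20), Pfkfb4 (-1.0045 ± 0.23) and Slc13a3 (-0.94 ± 0.21), which fell, and Prss35 (1.38 ± 0.23) and Kcne1l (1.15 ± 0.23), which rose. Each of these 5 was under 40 CPM in each library.

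Telencephalic genes served as a check of dissection. Mfge8, which is abundant in telencephalic astrocytes, was at 150.4, 271, 244 and 487 CPM and rose within each repeat (0.78 ± 0.12, adjusted p = 2.60e-07). It rose in tanycytes (1.09), oligodendrocytes (0.99) and OPCs (0.81) too. The telencephalic factors Lhx2 and Emx2 were at 1.29 to 5.53 and 2.06 to 4.48 CPM over the 4 libraries, overlapped between genotypes and did not pass. None of 8 hypothalamic and diencephalic genes passed. The part of dissection in the level of Mfge8 was not tested.

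Other lists held few calls or none. None of 15 circadian clock genes, 7 immediate early genes, 11 mitochondrially encoded genes or 88 cytosolic ribosomal protein genes passed. Of 12 glucocorticoid response genes 1 rose (against 1.04% of all genes), Sult1a1 (1.40 ± 0.36, adjusted p = 0.0118) at 2.32, 4.17, 11.1 and 6.44 CPM. The list of 25 astrocyte identity genes had a median of 0.12, with Apoe, Gfap and Clu higher and Gpc5 lower, against 1.04% and 0.696% of all genes. Of 10 genes of fibrous astrocytes 1 rose (against 1.04% of all genes), Aqp4, whose call was lost in 5 other fits as given above, and of 10 genes of protoplasmic astrocytes Kcnj10 and Gpc5 fell (against 0.696% of all genes). A list of 9 genes taken from differences reported in other cell types of these samples, and so no independent evidence, held 3 calls (against 1.74% of all genes), among them AC149090.1, a gene on an unplaced scaffold, which rose, and Neat1, which fell. AC149090.1 was at 175, 131, 344 and 193 CPM (0.77 ± 0.13, adjusted p = 5.81e-07) and also rose in tanycytes, oligodendrocytes, OPCs and neurons. Neat1, a nuclear non-coding RNA that builds paraspeckles, was at 52.9, 68.8, 29.5 and 42.6 CPM (-0.76 ± 0.15, adjusted p = 1.80e-04) and fell in tanycytes (by 0.97 on the log2 scale), oligodendrocytes (by 1.66) and OPCs (by 2.90). Of 238 tested genes within 10 Mb of Thra, 4 were called, which is 1.68% against 1.74% of all genes.

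Markers of other cells were followed in the same sums. Summed neuron markers were at 770.1, 812, 815 and 598 CPM, oligodendrocyte markers at 1238, 1113, 1307 and 1111 CPM, and microglia markers at 157, 141, 166 and 139.7 CPM. None of the tested 7 neuron, 8 oligodendrocyte, 4 OPC, 6 microglia, 5 ependymal or 5 endothelial markers passed. Of 10 neuropeptides, which are genes of neurons, Pomc, Oxt and Hcrt fell, against 0.696% of all genes. Hcrt, at 305, 302, 365 and 109 CPM, was low only in the TRα1+m library of repeat 2, and without that library its unblocked difference was 0.26. Its difference with the block was -0.56 to -0.61 in the other fits, and of these it passed with bias-adjusted deviances only (elsewhere an adjusted p of 0.599 or more). Oxt was lower in TRα1+m within each repeat, with log2 differences of -0.51 and -0.66. With the block Oxt did not pass with DESeq2 (-0.59, adjusted p = 0.318) or a filter of 20 CPM (-0.57, adjusted p = 0.0539). It did not pass with tanycytes and VLMC counted in either, where its blocked difference shrank to -0.21 (adjusted p = 0.763). Leaving out every nucleus with at least 2 markers of other cells left 640, 488, 775 and 569 astrocyte nuclei. Of 10810 genes tested in them, the blocked fit called 36, 16 higher and 20 lower, of which 34 were among the 245. Gm35552 (2.28), C4b (1.49), Hr (-1.59), Gria2 (-1.07), Sgcd (-1.17) and Nkx6-2 (-1.11) were among these calls, while Kcnj10 (-0.59, adjusted p = 0.11) and Gfap (0.69, adjusted p = 0.16) were not, nor were Gpr158, Daam2, Hhip, Hes5, Slc38a3, Fzd9, Naaa, Angptl4 and Neat1. The part of the smaller number of nuclei in the lost calls was not tested.

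Astrocytes with Gfap RNA were then set apart from the others. A class cut at 1 UMI is a range of detection and not a cell type, and most of these nuclei held a single Gfap UMI. At 900 UMIs per nucleus, 89 and 119 WT nuclei and 235 and 159 TRα1+m nuclei held a Gfap UMI, and only 9, 24, 40 and 34 held 2 or more. The share was 4.39% and 6.39% in WT (5.39% ± 1.42, SD, n = 2) and 9.66% and 9.43% in TRα1+m (9.55% ± 0.16, SD, n = 2). The groups did not overlap, and the difference of 4.16 percentage points gave a two-sided exact permutation p = 0.3333, below which a design with 2 libraries in each arm cannot go. In neurons, which lack Gfap, the share was 1.01%, 1.29%, 2.42% and 1.22%, and in oligodendrocytes 3.17%, 2.65%, 7.06% and 3.54%, highest in the TRα1+m library of repeat 1. With all UMIs counted, the astrocyte shares were 7.94%, 12.04%, 15.8% and 17.7%. Gfap RNA was concentrated in few cells: the top 1% of astrocyte nuclei held 52.8%, 57.2%, 37.1% and 40.6% of Gfap UMIs.

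**Figure D3:**
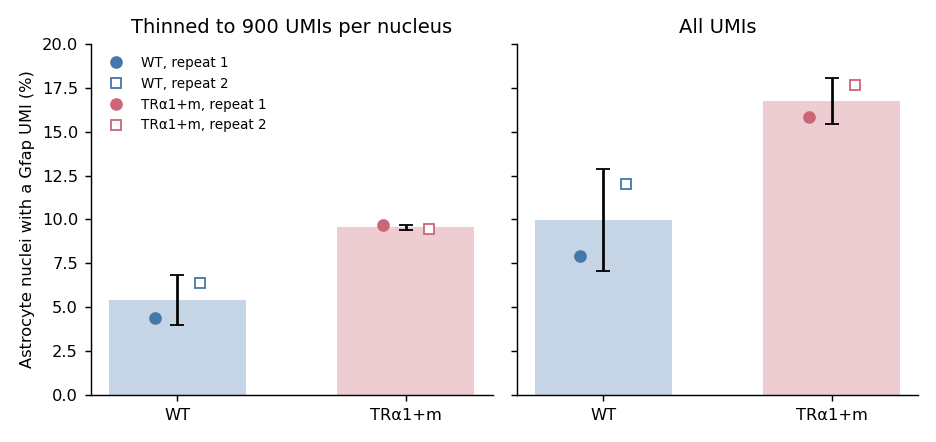
Share of astrocyte nuclei with a Gfap UMI (%) by genotype, at 900 UMIs per nucleus (left) and with all UMIs (right); points are libraries, bars the mean of 2 libraries and error bars the SD. Both TRα1+m libraries lay above both WT libraries in each panel.

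Genes that went with Gfap were sought between nuclei with and without a Gfap UMI within each library, at equal depth and with the library as a term. The test called 86 of 10796 genes (0.797%), 56 higher (0.519%) and 30 lower (0.278%) in nuclei with Gfap. With another scaling (RLE) the split was 78 and 21, and with DESeq2 it was 31 and 2. The split turned with 3 settings. With 2 or more Gfap UMIs as the class, 31 genes were higher and 93 lower, with no filter on low counts 38 were higher and 87 lower, and without nuclei holding markers of other cells 0 were higher and 5 lower. The median difference over all genes tested was -0.03 at first, and -0.50, -0.28 and -0.12 under these settings. Myoc, which encodes myocilin and marks astrocytes of the brain surface, had the largest difference. In nuclei with Gfap it was at 137, 299, 99.3 and 335 CPM and in those without at 3.4, 3.8, 7.6 and 5.8 CPM (5.17 ± 0.29, adjusted p = 5.86e-68). In each of the 4 libraries its level with Gfap exceeded that without by more than 10 times. The Myoc level with Gfap rested on 112 UMIs. With unthinned nuclei its difference was 6.38 (adjusted p = 0.0111). Without nuclei holding markers of other cells, Myoc was not among the genes tested.

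The Id genes, inhibitors of differentiation downstream of BMP signals, were higher with Gfap, Id1 by 2.20 ± 0.37, Id3 by 1.42 ± 0.21, Id2 by 0.95 ± 0.17 and Id4 by 0.82 ± 0.16 on the log2 scale. Aqp4 was higher in 3 of 4 libraries (1.13 ± 0.09), with 1018 against 405 CPM in WT of repeat 2 and 225 against 230.4 CPM in WT of repeat 1. Vim, a filament gene, was higher in 3 of 4 libraries (1.5 ± 0.34) and lower in TRα1+m of repeat 1, at 23.6 against 31.9 CPM, and its difference with unthinned nuclei was 1.88 without passing (adjusted p = 0.486). The protease inhibitor A2m (1.89 ± 0.31), the sulfatase Sulf2 (1.60 ± 0.33) and the glutamine carrier Slc38a1 (1.46 ± 0.14) were higher in 4 of 4 libraries, as were Emb (2.16), Pdzrn3 (1.92) and Stk32a (1.69). C4b was at 149.8, 131, 189 and 293.5 CPM with Gfap and at 28.1, 33.2, 79.4 and 120.1 CPM without (1.45 ± 0.19, adjusted p = 1.86e-11). Within the nuclei without Gfap, both TRα1+m libraries were thus still above both WT libraries for C4b.

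Of the genes lower with Gfap, Gpc5 had the smallest adjusted p. It was at 6192, 6078, 4738 and 5430 CPM with Gfap and 7836, 8654, 5787 and 7150 CPM without, lower in 4 of 4 libraries (-0.43 ± 0.05, adjusted p = 2.67e-12). Gria2 was at 612, 476, 260.0 and 203 CPM with Gfap and 735, 693, 397.5 and 362 CPM without (-0.59 ± 0.11, adjusted p = 5.2e-05). In both classes the TRα1+m libraries were below the WT libraries. Thrb, the thyroid hormone receptor β gene, was lower with Gfap in 4 of 4 libraries (-0.45 ± 0.12, adjusted p = 0.0246), as was Itih3 (-0.45 ± 0.09). Phactr1 (-0.87), Shc3 (-0.85), Camk1d (-0.84), Mtdh (-0.59), Gm20713 (-0.58), Grk3 (-0.52) and the growth factor receptor Igf1r (-0.49) completed the named genes, with the neuropeptide Pmch (-0.56), a gene of neurons. Grk3 and Pmch were lower in 3 of 4 libraries. With unthinned nuclei Thrb, Phactr1, Shc3, Mtdh, Igf1r and Pmch did not pass (differences of -0.30 to -0.04, adjusted p of 0.0642 to 0.91), and Thrb (0.0531) and Igf1r (0.0749) did not with RLE factors. With DESeq2, Gria2 (adjusted p = 0.0974), Pmch (0.112), Camk1d (0.523), Phactr1 (0.638), Grk3 (0.975), Shc3 and Igf1r (both 0.9995) did not pass. Their differences with DESeq2 were -0.84 to -0.47. Of 10 fibrous genes 4 were higher with Gfap (against 0.519% of all genes), and of 10 protoplasmic genes 2 were lower (against 0.278% of all genes). Without nuclei that held 2 or more markers of other cells, 24, 31, 64 and 41 nuclei with Gfap remained and 5 genes passed, each lower with Gfap: Erbb4, Plcb1, Pmch, Gpc5 and Gm20713. Of 6505 genes tested there, 363 had an unadjusted p under 0.05. The differences of Id1 (2.30), Id3 (1.37), C4b (1.21), the tetraspanin gene Cd9 (0.85) and Id4 (0.79) did not pass in these nuclei, nor did those of Slc38a1 (0.54), Clu (0.20) and Apoe (0.04), which were 1.46, 0.46 and 0.32 in all nuclei.

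**Figure D4:**
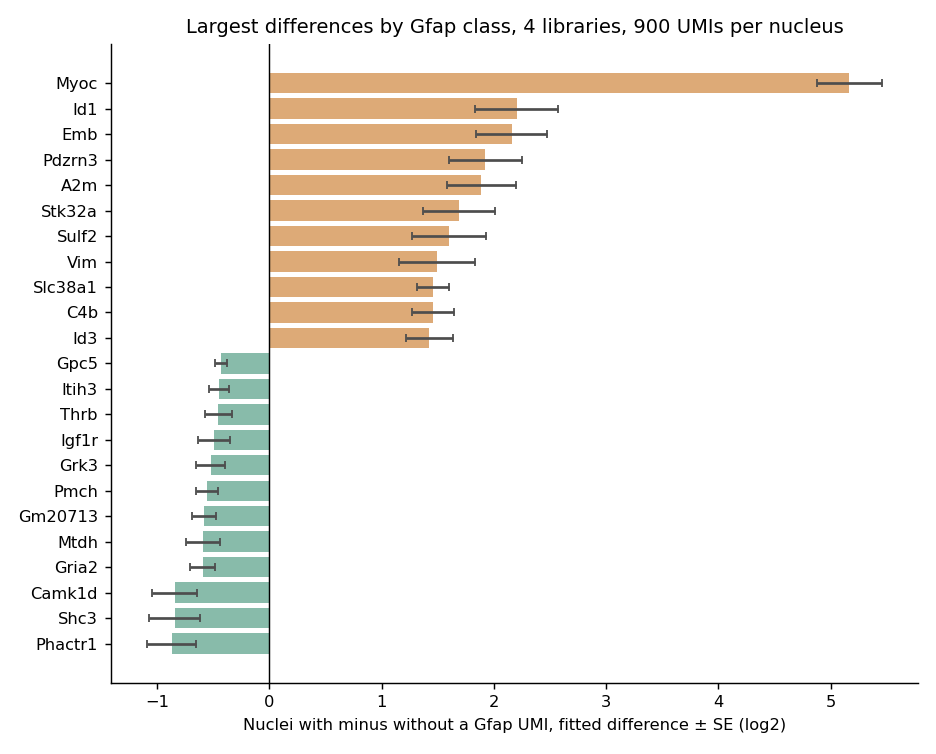
Fitted difference between astrocyte nuclei with and without a Gfap UMI (log2, bars with SE, 4 libraries, 900 UMIs per nucleus) for the genes reported here among the 12 of at least 50 CPM with the largest difference in each direction. Myoc stands apart at 5.17, and the genes lower with Gfap differ by less than 1.

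More genes passed between the repeats than between the genotypes. In the astrocytes 2453 of 14072 genes (17.4%) passed between repeats with genotype as a term, 1185 higher (8.42%) and 1268 lower (9.01%) in repeat 2. Many were genes by which astrocytes are known. Of 25 identity genes, 15 were higher and 3 lower in repeat 2, with a median of 0.50 against 0.0077 over all genes. Agt was at 628, 1789.8, 744 and 2287 CPM (1.52 ± 0.12, adjusted p = 1.71e-36), so its repeats did not overlap while its genotypes did. Nkain4, a partner of the sodium pump, was at 218, 619, 223 and 759 CPM (1.60 ± 0.12) and Srebf1, the regulator of fatty acid synthesis, at 72.5, 199, 75.2 and 226 CPM (1.48 ± 0.13). Fjx1 (1.51 ± 0.13), Tmem176a (1.49 ± 0.13) and the tetraspanin Cd81 (1.47 ± 0.11) were likewise higher in repeat 2 in both genotypes. Of 26 cholesterol and lipid genes 16 were higher in repeat 2 and 1, Fabp7, was lower.

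Genes lower in repeat 2 included most of those for ribosomal proteins. Mt3, a metal-binding protein, was at 707, 213, 839 and 122 CPM (-2.29 ± 0.13, adjusted p = 6.76e-68). Of 88 cytosolic ribosomal protein genes 56 were lower and 3 higher, against 9.01% of all genes lower and 8.42% higher. Their summed level was 24467, 17908, 26199 and 13534 CPM, lowest in the TRα1+m library of repeat 2. Rpl39 (-1.95 ± 0.13), Rpl41 (-1.88 ± 0.13), Rpl38 (-1.87 ± 0.12) and the host RNA of small nucleolar RNAs Snhg9 (-2.15 ± 0.18) were among the largest differences. Oxt, the oxytocin gene of neurons, was at 705, 118, 494 and 74.8 CPM (-2.69 ± 0.13), and 8 of 10 neuropeptides were lower in repeat 2 (against 9.01% of all genes). The part of dissociation, depth and free RNA in these differences was not tested.

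The last question was where the genotype difference of astrocytes parted from that of other glia in the same libraries. Against oligodendrocytes, the difference of the 2 genotype effects passed for 67 of 14259 genes (0.47%), and with the repeat as a block for 360 (2.52%). With no library term it passed for 5 genes, and 7 of the 12 named genes lost their call. With the block, 64 of the 67 were called in oligodendrocytes and 9 in astrocytes. Dpyd, which breaks down pyrimidines, was at 231, 222, 225 and 220.4 CPM in astrocytes and at 272, 366, 36.6 and 41.2 CPM in oligodendrocytes. Its level in astrocytes hardly moved between libraries while it was several times lower in TRα1+m oligodendrocytes (difference of effects 2.92 ± 0.21, adjusted p = 5.51e-05). Tmem117 was at 70.4, 94.7, 62.7 and 84.3 CPM in astrocytes against 289.7, 370.4, 26.6 and 33.3 CPM in oligodendrocytes (3.22 ± 0.17, adjusted p = 1.66e-06). Ccnd3, a cyclin, was at 180.6, 165, 187 and 197 CPM in astrocytes against 40.5, 39.4, 212 and 253 CPM (-2.45 ± 0.17, adjusted p = 2.09e-05).

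Maml3 and Hhip moved in opposite directions in the 2 cell types. Maml3, a Notch coactivator, was at 39.2, 48.1, 74.5 and 89.0 CPM in astrocytes, where it rose (0.91 ± 0.14), and at 47.8, 36.9, 20.7 and 16.6 CPM in oligodendrocytes, where it fell (-1.12 ± 0.22). Hhip fell in astrocytes, as given above, and rose in oligodendrocytes from 143.9 and 137.5 CPM to 208 and 238 CPM (0.73 ± 0.15). The difference of effects passed for both genes (1.99 ± 0.26 for Maml3, adjusted p = 0.00319; -1.97 ± 0.22 for Hhip, adjusted p = 8.46e-04).

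**Figure D5:**
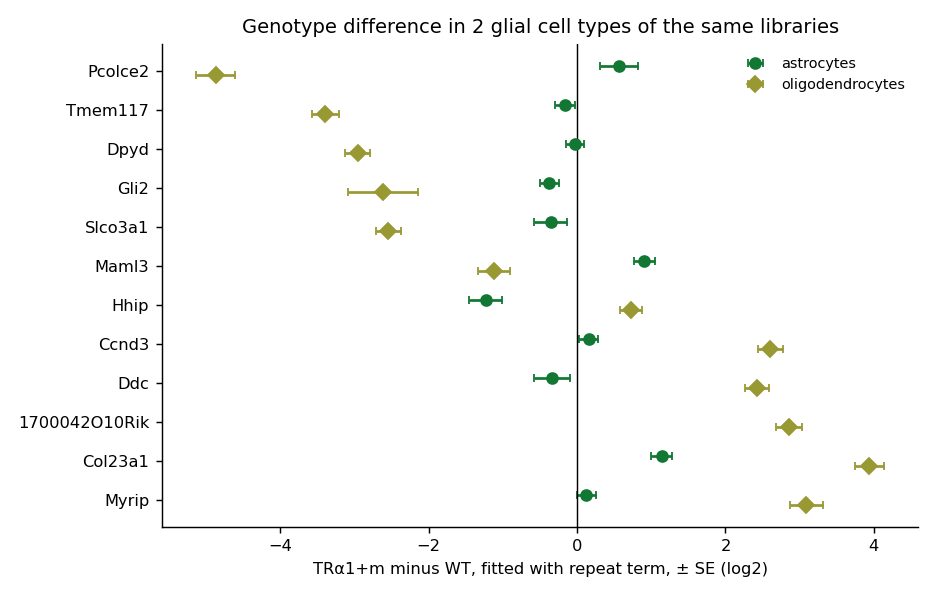
Genotype difference (TRα1+m minus WT, log2, with SE, repeat as a block) in astrocytes (circles) and oligodendrocytes (diamonds) for the 12 named genes whose effects differed; 1700042O10Rik was too low in astrocytes to be fitted. The astrocyte values of Dpyd, Myrip, Ccnd3 and Tmem117 lie near 0, and those of Hhip, Col23a1 and Maml3 lie farthest from it. Maml3 and Hhip passed in both cell types with opposite signs. Pcolce2 and Ddc also differ in sign but did not pass in astrocytes.

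Against tanycytes, the nearest relatives, 1 of 14160 genes (0.00706%) passed, and 41 (0.29%) with the block. The 1 gene was Sgcz, a sarcoglycan, at 148, 162, 143 and 99.96 CPM in astrocytes and 1123, 1253, 403 and 289 CPM in tanycytes (1.42 ± 0.19, adjusted p = 0.0349). In tanycytes both TRα1+m libraries lay far below both WT libraries, and in astrocytes the difference of -0.36 did not pass (adjusted p = 0.15). Sgcz was no longer called when either WT library was left out, and DESeq2 did not call it.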

How the data were processed

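Per the labels and the study's methods, the authors aligned reads of 10x nuclei to mm10 with Cell Ranger 5.0.1, introns included, and deposited UMI counts per gene and nucleus with an annotation table; their filters took out nuclei below 900 counts or 700 features, above 5% mitochondrial reads or with a scrublet doublet score of 0.18 or more, so no doublet caller was run here. Cell types are the authors' labels. Counts of the astrocyte nuclei were summed per library and tested with edgeR 4.0.16 (quasi-likelihood, TMM factors, filterByExpr, Benjamini-Hochberg adjustment, threshold 0.05) in R 4.3.3, with DESeq2 1.42.0 as an alternative. The study's repeats are separate experiments with 1 library of each genotype, so the repeat number pairs libraries; the difference between repeats in WT and in TRα1+m correlated across 14072 genes (r = 0.578, genes not being independent). Libraries are pools of 3 mice, so no p-value measures the spread between single mice. With the block, the error of a gene is borrowed largely from other genes. Its p-value is therefore no measure of that gene's own spread between pools. The tests between Gfap classes and between cell types compare sums within libraries. Nuclei were thinned to 900 UMIs (seed 1) for shares of nuclei. Gfap was left out of the test between Gfap classes. The members and gene lists were chosen with earlier results of these data known. Named genes were the 12 with the largest difference per direction (Gfap classes also 12, at 50 CPM or more; repeats and cell type comparisons 6, at 50 CPM or more) plus called members of lists; since the test without block called none, the rule was applied to the fit with block after values were seen. Positions are from GENCODE M21 (GRCm38). All fits were tested on simulated data. A few genes are not reported here.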

Additional observations from a re-analysis of the deposited data

Results flagged for a closer look

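Genes were set aside for a closer look where a test of the difference itself found another genotype effect in astrocytes than in a second cell type of the same libraries. This held for 67 genes against oligodendrocytes and 1 gene against tanycytes.

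Against oligodendrocytes, 6 named genes had the larger value in astrocytes: Pcolce2 by 5.44, Tmem117 by 3.22, Dpyd by 2.92, Gli2 by 2.22, Slco3a1 by 2.20 and Maml3 by 1.99 (differences of log2 fold changes). Pcolce2, an enhancer of collagen processing, was at 10.1, 9.5, 12.2 and 16.8 CPM in astrocytes and at 83.7, 132.7, 3.0 and 4.0 CPM in oligodendrocytes. Gli2, a hedgehog effector, was at 173, 138, 113 and 127 CPM in astrocytes and at most 14.3 CPM in oligodendrocytes. Slco3a1 was under 22 CPM in astrocytes and at 241, 263.5, 40.7 and 42.0 CPM in oligodendrocytes.

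The other 6 had the smaller value in astrocytes: Myrip at -2.98, Col23a1 at -2.82, 1700042O10Rik at -2.77, Ddc at -2.76, Ccnd3 at -2.45 and Hhip at -1.97. Col23a1 rose in both cell types, and more in oligodendrocytes, as given above. Myrip, a myosin and Rab linker, was at 81.5, 90.3, 78.4 and 110.6 CPM in astrocytes and rose in oligodendrocytes from 13.1 and 8.1 CPM to 71.3 and 103 CPM. Ddc, the enzyme that makes dopamine and serotonin, was at 13.4, 17.4, 13.8 and 10.4 CPM in astrocytes and at 48.6, 47.5, 234 and 259 CPM in oligodendrocytes. 1700042O10Rik was at 1.4 to 2.1 CPM in astrocytes, below the filter of the astrocyte test. Against tanycytes the 1 gene was Sgcz, at 1.42.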

How the results depend on the processing

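The count of genotype calls depended on the pairing, the filter and the tool. Without the block it was 0 with RLE factors, bias-adjusted deviances, a filter of 20 CPM, equal numbers of nuclei, without nuclei holding other markers and with tanycytes and VLMC counted in; it was 2 with DESeq2, 33 with no filter, 16 by a rank sum test over nuclei, which are not replicates, and 0 to 5 when single libraries were left out (5 without TRα1+m of repeat 1, 1 without TRα1+m of repeat 2). The replicate block gave 245 calls; settings combined with the block were chosen after seeing the data and gave 250 with bias-adjusted deviances, 119 with RLE factors, 203 with no filter, 47 with a filter of 20 CPM, 104 with equal numbers of nuclei, 36 without nuclei holding other markers, 190 with tanycytes and VLMC counted in and 18 with DESeq2. All 245 had the same sign with RLE factors, and 215 of 216 tested without nuclei holding other markers. Leaving out single libraries could not be fitted with the block. Without a block and without single libraries, where 1 library is set against both repeats of the other genotype, Pde10a ranged from -0.15 (without TRα1+m of repeat 1) to 2.25, Aqp4 from -0.23 (without TRα1+m of repeat 2) to 1.00, Hcrt from -1.49 to 0.26 (without TRα1+m of repeat 2) and Oxt from -2.49 to 1.31 (without WT of repeat 1; 0.23 without TRα1+m of repeat 2); Oxt was at 0.068 with tanycytes and VLMC counted in. Col23a1 turned to -0.00798 in the blocked fit with tanycytes and VLMC counted in. The causes were not tested.

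Between repeats the calls were 443 with DESeq2, 1060 with no genotype term and 280 to 2502 without single libraries (280 without TRα1+m of repeat 1, 363 without WT of repeat 1, 1387 without TRα1+m of repeat 2). Against oligodendrocytes they were 31 with DESeq2, 246 with no filter, 5 with no library term, 360 with the block and 5 to 144 without single libraries (5 without WT of repeat 2, 27 without WT of repeat 1, 144 without TRα1+m of repeat 1). Against tanycytes they were 0 with DESeq2, 16 with no filter, 0 with no library term, 41 with the block and 0 to 7 without single libraries (0 without either WT library). Between Gfap classes they were 124 with 2 or more Gfap UMIs (31 higher, 93 lower) and 125 with no filter (38 higher, 87 lower), where most were lower in place of most higher, 99 with RLE factors (78 higher, 21 lower), 33 with DESeq2 (31 higher, 2 lower), 412 with unthinned nuclei, 5 without nuclei holding other markers (0 higher, 5 lower) and 47 to 95 without single libraries (47 without WT of repeat 2). The Gfap share differed by 6.77 percentage points unthinned and by 3.15 to 5.16 points without single libraries. The share of astrocytes differed by 0.02 to 0.09 (log2) without single libraries and by 0.05 with the block. With 2 libraries per genotype, no exact test over libraries can pass the threshold.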
